A study of Mus musculus with 21 samples.

Results

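The genes that encode the reprogramming factors Foxa1, Foxa2, Foxa3 and Hnf4a were examined for binding by those same factors. The members are all peaks of 12 chromatin immunoprecipitation sequencing (ChIP-seq) peak lists that overlap by at least 1 bp a fixed window around each gene on the mouse genome build mm9. The windows were chr12:58550000-58750000 for Foxa1 (200 kb), chr2:147780000-147960000 for Foxa2 (180 kb), chr7:19540000-19660000 for Foxa3 (120 kb) and chr2:163280000-163450000 for Hnf4a (170 kb). They held 30 of the 53536 peaks of the 12 lists. No measured value entered the rule for the windows, but the members and lists were chosen with earlier results of these data known.

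The cells were mouse embryonic fibroblasts of strain C57BL/6, prepared from embryos 13.5 days post coitum, and all groups used here carried Hnf4a introduced by retrovirus. Each line also carried Foxa1 (the Foxa1 line), Foxa2 (the Foxa2 line) or Foxa3 (the Foxa3 line), and was taken 48 hours after infection or as hepatocyte-like cells, named iHep. Each line and stage has 1 library for its own Foxa protein and 1 for Hnf4a, which gives 6 Foxa lists and 6 Hnf4a lists. The sources used here do not give the promoter of the viruses, the antibody clones, or whether an iHep line is 1 clone, and the cell type label of the iHep samples still reads as fibroblast. Peak lists hold no expression values, so the cells were not checked against liver markers. With 1 library per group there is no replicate spread, and no test was made. The depth of the libraries is unknown.

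Foxa proteins are forkhead transcription factors that can bind their DNA motif in closed chromatin and help to open it. Hnf4a is a nuclear receptor that binds direct repeats of a hormone receptor half-site and is needed for hepatocyte gene expression. In liver these factors belong to a network in which hepatic transcription factors bind their own genes and those of each other, and Foxa1, Foxa2 and Hnf4a are well known members. A peak anywhere in the window around the own gene is called self binding here. A peak anywhere in the window of another factor's gene is called cross binding. Neither term means that the peak lies at the gene itself, since distances to the genes on mm9 were not analysed. The introduced copies come from virus and do not need the resident genes to be active.

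The promoter of each factor is shown because self and cross binding concern the regulation of these genes. Each run holds the 250 bases before an annotated start, 5′ to 3′ on the gene's strand, from RefSeq on build GRCm38.p6. Since that build differs from mm9, these runs were not placed against the peaks. All 4 genes were matched by symbol, with 7 annotated starts between them, and the first listed start is printed. Further starts of Foxa2 and the second start of Hnf4a, with its run at chr2:163546905-163547154, are not printed. Which start is used in hepatocytes or in these cells was not tested. Capitals mark matches to the forkhead letters TGTTTAC or TATTTAC or to the Hnf4a letters CAAAGTCCA or CAAAGGTCA, searched on both strands.
Foxa1 (chr12:57546112-57546361, minus strand): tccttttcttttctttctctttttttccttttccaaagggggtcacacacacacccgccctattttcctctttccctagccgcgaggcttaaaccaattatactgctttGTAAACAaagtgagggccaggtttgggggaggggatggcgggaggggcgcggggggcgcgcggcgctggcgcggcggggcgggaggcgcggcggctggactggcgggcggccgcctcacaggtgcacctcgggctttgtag
Foxa2 (chr2:148046970-148047219, minus strand): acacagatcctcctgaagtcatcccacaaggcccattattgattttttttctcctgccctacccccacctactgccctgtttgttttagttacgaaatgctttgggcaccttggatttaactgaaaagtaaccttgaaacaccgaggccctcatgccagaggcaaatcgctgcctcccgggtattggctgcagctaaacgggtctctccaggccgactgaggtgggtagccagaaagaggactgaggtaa
Foxa3 (chr7:19023540-19023789, minus strand): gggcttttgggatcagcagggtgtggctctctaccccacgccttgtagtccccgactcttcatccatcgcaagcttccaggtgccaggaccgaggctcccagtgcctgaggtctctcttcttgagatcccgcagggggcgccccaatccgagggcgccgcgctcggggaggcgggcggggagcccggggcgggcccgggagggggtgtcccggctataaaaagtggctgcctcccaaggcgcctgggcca
Hnf4a (chr2:163506607-163506856, plus strand): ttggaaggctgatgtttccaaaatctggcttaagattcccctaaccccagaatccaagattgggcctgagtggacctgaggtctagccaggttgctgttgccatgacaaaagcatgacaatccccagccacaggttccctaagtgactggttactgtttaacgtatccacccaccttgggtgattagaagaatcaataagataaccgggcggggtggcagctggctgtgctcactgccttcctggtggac
Of the 7 starts 1 held a match, that of Foxa1, where GTAAACA, the reverse complement of TGTTTAC, lies at bases -141 to -135 from the start. Among 32851 promoter runs of the same length 3.17% held TGTTTAC and 2.73% held TATTTAC. The letters CAAAGTCCA were in 0.384% and CAAAGGTCA in 0.426% of them. A match to either forkhead run was in 5.76% of them, and a match to either Hnf4a run in 0.807%.

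Foxa peaks were present at all 4 loci, while Hnf4a peaks were present at 2 loci and in 1 list. The Foxa lists gave 27 of the 30 peaks and the Hnf4a lists 3, all from the iHep Foxa3 line. The Hnf4a locus held 10 peaks, the Foxa1 locus 9, the Foxa2 locus 6 and the Foxa3 locus 5. Foxa1 and Foxa2 were found at the Foxa1, Foxa2 and Hnf4a loci and in no case at the Foxa3 locus. Foxa3 was found at the Foxa3 and Hnf4a loci and in no case at the Foxa1 or Foxa2 locus. Over the genome, windows as long as the Foxa3 locus held a peak in 12.7% to 28.3% of cases for the Foxa1 and Foxa2 lists. For the Foxa3 lists the share was 21.5% to 28.9% at the lengths of the Foxa1 and Foxa2 loci. Most such windows were thus empty elsewhere too. Merging peaks that overlap gave 15 regions, of which 9 were held by more than 1 list, against 38.1% of the 32475 merged regions of the whole genome. Of the 15 regions 6 were held by 1 list, 4 by 2 lists, 4 by 3 lists and 1 by 4 lists.

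As a background, the genome was laid out in 15745 tiles of 167.5 kb, the mean length of the 4 windows, and the share of tiles with at least 1 peak was counted for each list. At 48 hours the share was 29.5% for Foxa1, 28% for Foxa2 and 20.6% for Foxa3, and these lists had a peak at 3, 2 and 2 of the 4 loci. In iHep cells the share was 16.6% for Foxa1, 34.8% for Foxa2 and 25.8% for Foxa3, and these lists had a peak at 3, 3 and 2 loci. Each of the 6 Foxa lists thus reached a larger share of the 4 loci than of the tiles, but 4 loci are few and the counts depend on the limits of the windows. The tiles were laid without regard to genes, whereas each window was placed around a gene. Whether windows around other genes reach such shares was not tested. The 48-hour Hnf4a lists had a peak in 1.48% (Foxa1 line), 1.66% (Foxa2 line) and 1.31% (Foxa3 line) of tiles and at 0 loci. The iHep Hnf4a lists had a peak in 8.22%, 12.2% and 9.46% of tiles in the same order of lines, and at 0, 0 and 2 loci. With shares this low, the empty Hnf4a lists do not stand apart from their own background. At the mean density of each list over the genome, the 48-hour Hnf4a lists would place 0.106, 0.115 and 0.0939 peaks in the 4 windows together, and the iHep Hnf4a lists of the Foxa1 and Foxa2 lines 0.401 and 0.631. For the iHep Hnf4a list of the Foxa3 line this value was 0.636, beside 3 peaks found.

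**Figure D1:**
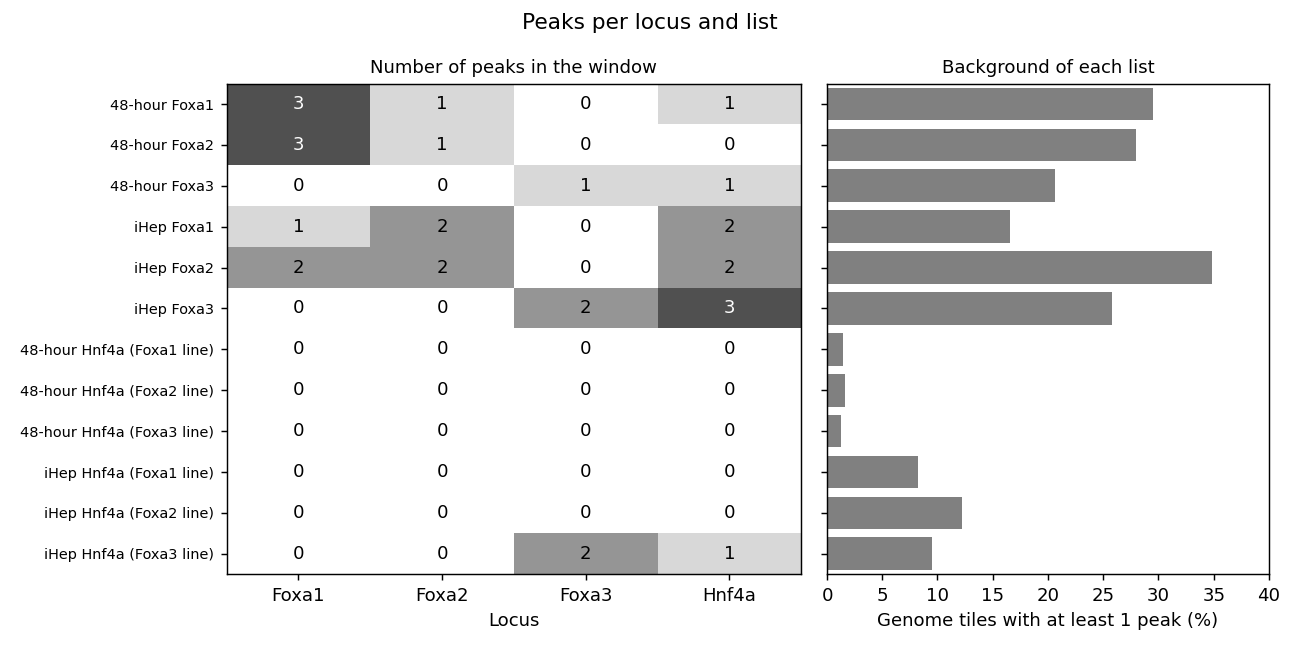
Number of peaks in each window (columns, loci; rows, the 12 lists) beside the percentage of 167.5 kb genome tiles that hold at least 1 peak of the same list (bars). Foxa1 and Foxa2 lists have 0 peaks at the Foxa3 locus, Foxa3 lists have 0 at the Foxa1 and Foxa2 loci, and of the 6 Hnf4a lists only that of the iHep Foxa3 line has any. The longest bar is 34.8%, so most tiles are empty in every list.

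Foxa1, a forkhead protein that acts with Foxa2 in early liver development, had a locus with Foxa1 and Foxa2 peaks at both stages. The locus held 3 regions, all shared between Foxa1 and Foxa2 lists. All its peak centres lay on 1 side of the window, from -70.5 kb to -48.6 kb from the window centre. The first, chr12:58579251-58579824, was a peak in all 4 Foxa1 and Foxa2 lists. Its score ranked 797 of 6781 in 48-hour Foxa1, 1158 of 6827 in 48-hour Foxa2, 1495 of 3435 in iHep Foxa1 and 4014 of 10330 in iHep Foxa2, where rank 1 is the highest score of a list. It was thus in the upper 50% of every list that held it, and such regions held by all 4 lists made up 2.89% of merged regions in the genome.

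The second Foxa1 region, chr12:58597350-58598005, gave the highest placed peak of all 30. It ranked 179 of 6781 in 48-hour Foxa1, with a score of 97.1, and 889 of 6827 in 48-hour Foxa2. In iHep cells it ranked 7749 of 10330 in the Foxa2 list and was absent from the Foxa1 list. The strongest early site at the Foxa1 locus was therefore low in 1 iHep list and not listed in the other. The third region, chr12:58601172-58601668, lay 3.17 kb further along. It was a peak at 48 hours for Foxa1 (rank 1831) and Foxa2 (rank 3688) and in neither iHep list. Its peak centres differed by 16.0 bp between the lists. The 3 peaks of each 48-hour list made the Foxa1 locus dense for its length: of 13186 tiles of 200 kb, 4.15% held at least as many 48-hour Foxa1 peaks and 4.75% as many 48-hour Foxa2 peaks. For the 2 iHep Foxa2 peaks the share was 20.4% and for the 1 iHep Foxa1 peak 19.3%. No Foxa3 and no Hnf4a list had a peak in this window.

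**Figure D2:**
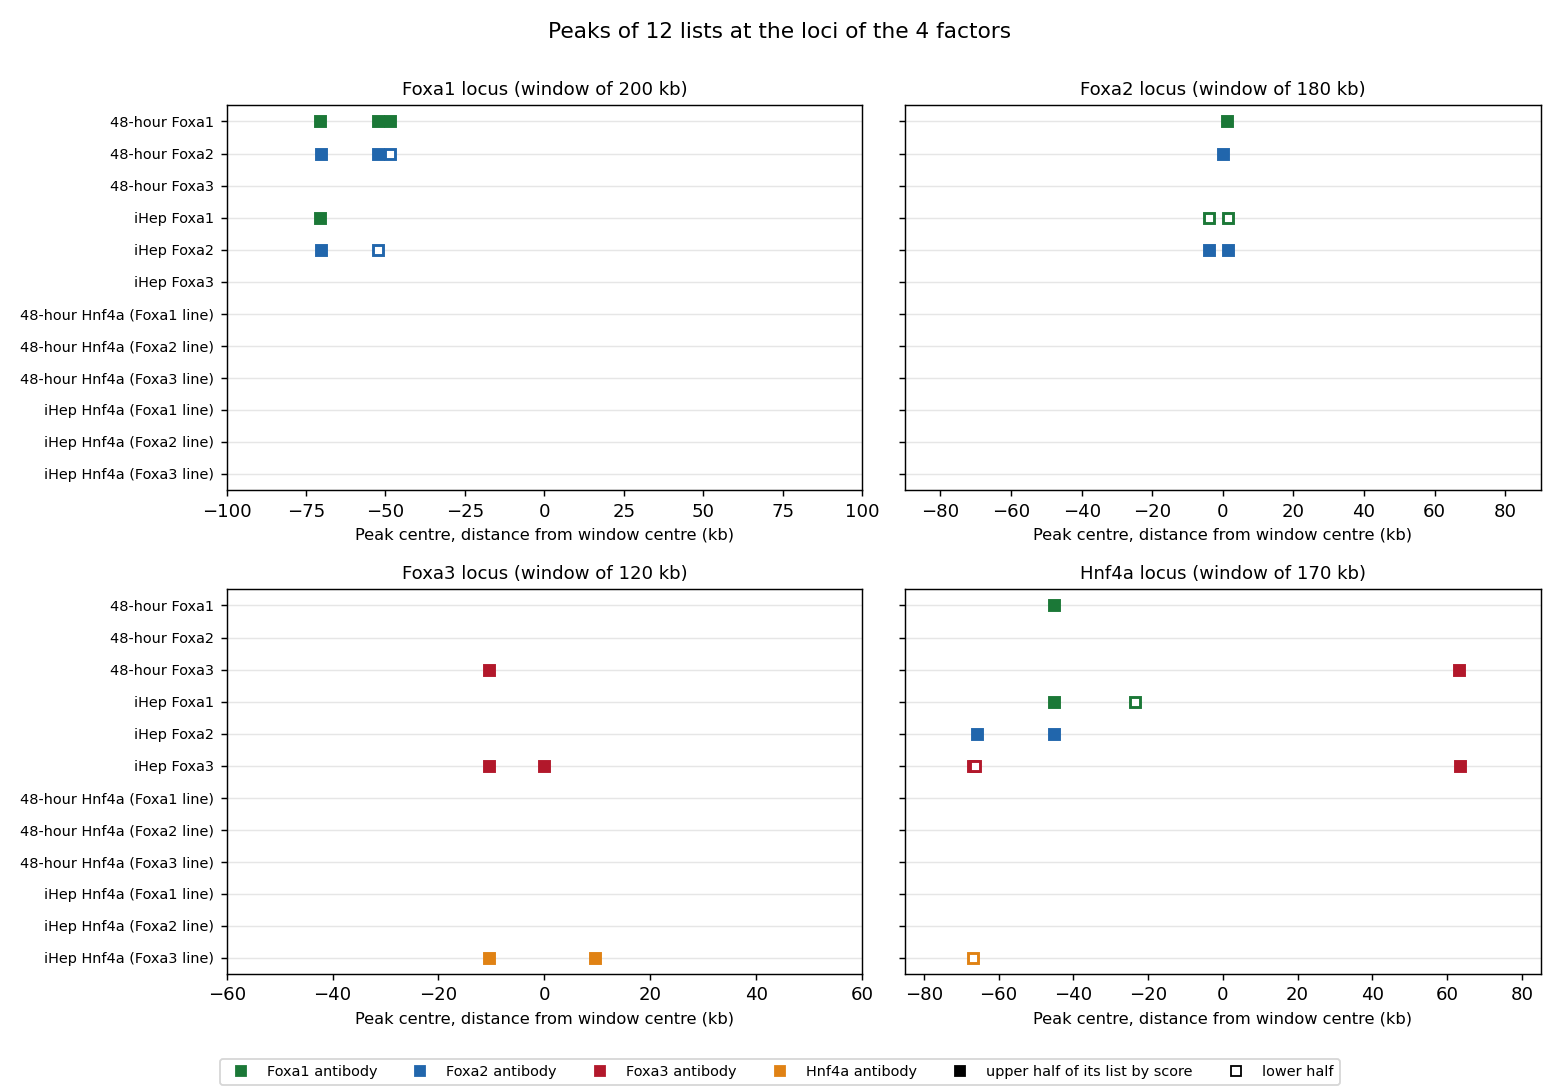
Position of every peak in the 4 windows, as the distance of the peak centre from the window centre in kb (horizontal axis) for each list (rows); colour gives the antibody, and a filled square marks a peak in the upper 50% of its list by score. Squares in 1 column are peaks of the same region, such as the 4 Foxa1 and Foxa2 peaks at the left of the Foxa1 window, and no green or blue square belongs to the same region as a red one; the blue and red squares at the left of the Hnf4a window are neighbours with a gap of 265 bp.

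Foxa2, the paralog closest to Foxa1 and an early factor of gut and liver endoderm, had 4 of the 6 peaks of its locus in iHep lists. The window held 3 regions, with gaps of 2.99 kb and 557 bp between them. The first, chr2:147865737-147866354, was a peak in iHep Foxa1 (rank 2081 of 3435) and iHep Foxa2 (rank 2814 of 10330) and in no 48-hour list. The third, chr2:147871097-147871601, was a peak in iHep Foxa2 (rank 3059), iHep Foxa1 (rank 3237) and 48-hour Foxa1 (rank 3008 of 6781). In iHep Foxa1 this peak stood near the low end of the list, with a score of 10.7, while in iHep Foxa2 it stood in the upper 50%. The 2 iHep Foxa1 peaks of this window were matched by 4.19% of 14650 tiles of 180 kb, and the 2 iHep Foxa2 peaks by 18.3%. A window of this length held at least 1 peak in 31.1% of cases for 48-hour Foxa1 and in 29.5% for 48-hour Foxa2, so the single 48-hour peaks are near what these lists show elsewhere.

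The second Foxa2 region, chr2:147869349-147870539, was found only in the 48-hour Foxa2 list, the early list of the line that received Foxa2. It was 1191 bp wide, and 18 of the 6827 peaks of that list were at least as wide, itself included. Its score of 16.8 (rank 3249) was the lowest of those 18, whose median score was 44.1. It ended 557 bp before the region that the other Foxa1 and Foxa2 lists shared. The cells of this line carry Foxa2 introduced by virus, and where the introduced copy and the resident gene have the same sequence, reads from them cannot be told apart. The places of the coding exons on mm9 were not analysed here.

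Foxa3, the third paralog, which is expressed later in liver development than the others, had a locus with peaks only in Foxa3 lists and in Hnf4a of the same line. The Foxa1 and Foxa2 lists were empty here, as in most windows of this length. The first of its 3 regions, chr7:19589344-19589869, was a peak of 48-hour Foxa3 (rank 2211 of 5690), iHep Foxa3 (rank 1852 of 12661) and iHep Hnf4a of the Foxa3 line (rank 179 of 2506). It was the only one of the 15 regions held at both stages and by both kinds of antibody. The peaks differed in width, with 526 bp at 48 hours and 184 bp and 156 bp in the iHep lists. The iHep Foxa3 library gave narrower peaks in general, with a median width of 248 bp against 538 bp at 48 hours.

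The second Foxa3 region, chr7:19599525-19600494, was found only in iHep Foxa3 (rank 2872, score 21.9). At 970 bp it was wide for its list, where 486 of 12661 peaks were at least as wide. Of these 486 peaks 119 had a lower score, and their median score was 31.1, so it too scored below most peaks of its width. The same limit applies, since this line carries an introduced Foxa3. The third region, chr7:19609524-19609709, was found only in iHep Hnf4a of the Foxa3 line (rank 299 of 2506), 9.03 kb beyond the second. The 2 Hnf4a peaks in this window were matched by 2.36% of 21984 tiles of 120 kb. The 2 iHep Foxa3 peaks were matched by 12.9% and the 1 48-hour Foxa3 peak by 16.1%.

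Hnf4a, the factor that all lines received, had a locus with Foxa peaks from 5 of 6 Foxa lists and with 1 Hnf4a peak. The Hnf4a peak, at chr2:163298197-163298354, came from the iHep Foxa3 line, was 158 bp wide and ranked 1697 of 2506. It lay inside an iHep Foxa3 peak (rank 5625 of 12661), and both belong to region chr2:163297989-163298367. This was the only instance of self binding by Hnf4a among 6 lists, and it was in the lower 50% of its list. A weaker iHep Foxa3 peak (rank 9282) followed after 108 bp at chr2:163298476-163298642. After a further 265 bp came an iHep Foxa2 peak at chr2:163298908-163299399 (rank 2526 of 10330). Foxa2 and Foxa3 peaks of iHep cells thus lay side by side here without overlapping.

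A broad region at chr2:163319269-163320245 was a peak in 48-hour Foxa1 (rank 2209 of 6781), iHep Foxa1 (rank 1017 of 3435) and iHep Foxa2 (rank 2561 of 10330). Its peaks were 821, 859 and 977 bp wide. They were among the widest of their lists, where 113, 15 and 74 peaks were at least as wide. Their scores of 24.8, 32.0 and 34.2 were below the medians of the equally wide peaks, at 44.3, 48.4 and 58.0, and 20, 4 and 14 of those peaks scored lower. The region was held by 3 lists from 2 lines. It was in no list of the Foxa3 line and in no Hnf4a list. All lines carry an introduced Hnf4a, so the limit on telling its reads from those of the resident gene applies to this window too. Whether that limit bears on this region was not tested. The next region, chr2:163341226-163341650, was a peak in iHep Foxa1 alone (rank 2008). The last, chr2:163427899-163428710, lay 86.2 kb further along and was a peak of 48-hour Foxa3 (rank 1093 of 5690) and iHep Foxa3 (rank 1384 of 12661). Its peak centres differed by 246.5 bp, the largest spread among the 9 shared regions, whose median was 57.5 bp. Of 15515 tiles of 170 kb, 3.91% held at least as many iHep Foxa1 peaks (2), 17.3% as many iHep Foxa2 peaks (2) and 10.9% as many iHep Foxa3 peaks (3). A share of 29.8% held a 48-hour Foxa1 peak, 20.6% a 48-hour Foxa3 peak and 9.64% an iHep Hnf4a peak of the Foxa3 line.

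Self and cross binding were then counted over pairs of a list and a locus. All 6 Foxa lists had a peak at the locus of their own Foxa gene, with 10 peaks, beside a mean of 26.0% of equally long tiles. Without the 2 wide peaks held by 1 list, at the Foxa2 and Foxa3 loci, 5 of 6 lists and 8 peaks remain, since the 1191 bp peak is the only 48-hour Foxa2 peak at the Foxa2 locus; this count was added after seeing the data. At the loci of the other Foxa genes 4 of 12 pairs had a peak, beside 25.5% of tiles, and all 4 were Foxa1 lists at the Foxa2 locus or Foxa2 lists at the Foxa1 locus. At the Hnf4a locus 5 of 6 Foxa lists had a peak, beside 26.2%, and the list without one was 48-hour Foxa2. For Hnf4a, 1 of 6 lists had a peak at its own locus, beside 5.84%, and 1 of 18 pairs had a peak at a Foxa locus, beside 5.69%. Foxa lists were thus found at their own locus and at the Hnf4a locus in a larger share of pairs than of tiles, and Hnf4a lists were near their background. For the Hnf4a locus this rests on the outer parts of the window. With only the central part of each window, the Hnf4a locus held 1 peak from 1 list, iHep Foxa1. The only Hnf4a peak at its own locus was then lost. The Foxa1 locus held 2 peaks from 2 lists, and the Foxa2 and Foxa3 loci kept all 6 and 5 peaks. The pairs are not independent, since they repeat few loci over lines and stages, and 1 region can count in more than 1 list. All Foxa pairs at the Hnf4a locus rest on that 1 locus. Since protein, antibody and line go together in these Foxa libraries, they cannot be told apart.

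Sharing between lists at the loci was set beside that of the whole lists. Of the 5 48-hour Foxa1 peaks at the loci 3 overlapped a 48-hour Foxa2 peak, where 45.8% (95% Wilson interval 44.6% to 47%) of the whole list did. Of the 5 iHep Foxa1 peaks 4 overlapped an iHep Foxa2 peak, where 85.3% (84.0% to 86.4%) of the list did. Seen from iHep Foxa2, 4 of 6 peaks overlapped an iHep Foxa1 peak, where 28.3% (27.4% to 29.1%) of that longer list did. None of the 15 regions joined a Foxa3 list with a Foxa1 or Foxa2 list, and 1.2% of merged regions in the genome did so. Of the 3 Hnf4a peaks 2 overlapped an iHep Foxa3 peak of the same line, where 37.7% (35.8% to 39.6%) of that Hnf4a list did. Seen from iHep Foxa3, 2 of 5 peaks overlapped an Hnf4a peak, where 6.93% (6.50% to 7.38%) of the list did. These intervals cover counting error only.

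Across stages, 7 of the 11 48-hour peaks were kept, that is, overlapped an iHep peak of their own line and antibody. For Foxa1 3 of 5 were kept, for Foxa2 2 of 4 and for Foxa3 2 of 2, where 30.8% (29.7% to 31.9%), 31.5% (30.4% to 32.6%) and 74.2% (73.1% to 75.3%) of the whole lists were. The peaks not kept were 2 Foxa1 peaks and 1 Foxa2 peak at the Foxa1 locus and the wide 48-hour Foxa2 peak. In the Foxa3 line the titles carry replicate number 1 at 48 hours and 3 in iHep cells, while the other lines have 1 at both stages. Each of these titles ends in a label that starts with R, and what it stands for is unknown. No line has the same label at both stages, so label and stage cannot be told apart. In iHep cells of the Foxa2 line the label also differs between the Foxa2 and Hnf4a libraries. Of the 19 iHep peaks 7 overlapped a 48-hour peak of their own line and antibody, where 30.5% of all iHep peaks did. The share was 60.8% of the whole iHep Foxa1 list, 20.8% of Foxa2 and 43.8% of Foxa3, and at the loci it was 3 of 5, 2 of 6 and 2 of 5 peaks. At the Foxa1 locus all 3 iHep peaks were already 48-hour peaks, whereas at the Foxa2 locus 1 of 4, at the Foxa3 locus 1 of 4 and at the Hnf4a locus 2 of 8 were. These counts mix antibodies. They include iHep Hnf4a peaks of the Foxa3 line, 2 at the Foxa3 locus and 1 at the Hnf4a locus. Of these, 0 were at a 48-hour peak, where 1.48% of that whole list was. The counts therefore do not separate the loci from the mix of lists. The Foxa1 locus had 6 peaks at 48 hours and 3 in iHep lists, and the other loci 2 and 4, 1 and 4, and 2 and 8. The lists changed in length as well, from 20539 to 32997 peaks over all, with Foxa1 falling from 6781 to 3435, Foxa2 growing from 6827 to 10330 and Foxa3 growing from 5690 to 12661, so the 11 and 19 peaks at the loci do not show a change beyond that of the lists. Whether the depth of the libraries differed between the stages is unknown.

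**Figure D3:**
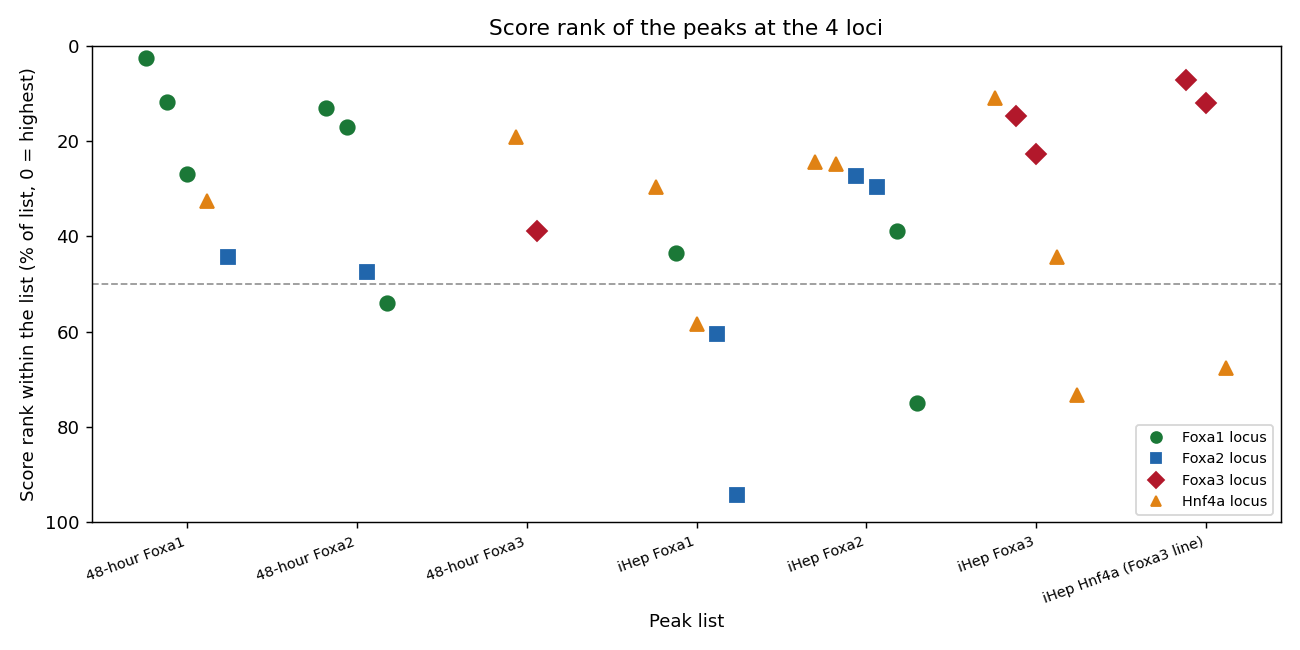
Score rank of each of the 30 peaks, as a percentage of its list (vertical axis, 0 is the highest score), for the 7 lists that have a peak at the loci (horizontal axis); shape and colour give the locus, and the dashed line marks 50%. Of the 30 peaks 23 lie above the line, and the highest is a 48-hour Foxa1 peak at the Foxa1 locus, at 2.64%.

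Scores were ranked within each list, since how the authors computed them is not given. The median rank of the 30 peaks was 29.6% of the list, where 50% is the middle of any list. Of the 30 peaks 23 were in the upper 50%, 12 in the upper 25% and 2 in the upper 10%. These are not separate sites, since the 30 peaks form 15 regions and 24 of them lie in shared regions. By locus the median was 27.0% for Foxa1, 46.0% for Foxa2, 14.6% for Foxa3 and 31.1% for Hnf4a. In the 48-hour lists 10 of 11 peaks were in the upper 50%, and in the iHep lists 13 of 19. The lowest placed were the iHep Foxa1 peak at the Foxa2 locus (rank 3237 of 3435) and the iHep Foxa2 peak at the Foxa1 locus (rank 7749 of 10330), both cross binding. The highest placed, at 2.64%, was self binding. The next were cross binding, by iHep Hnf4a at the Foxa3 locus (7.14%) and by iHep Foxa3 at the Hnf4a locus (10.9%). The peaks of shared regions had a median of 29.6% and those held by 1 list 36.0%.

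**Figure D4:**
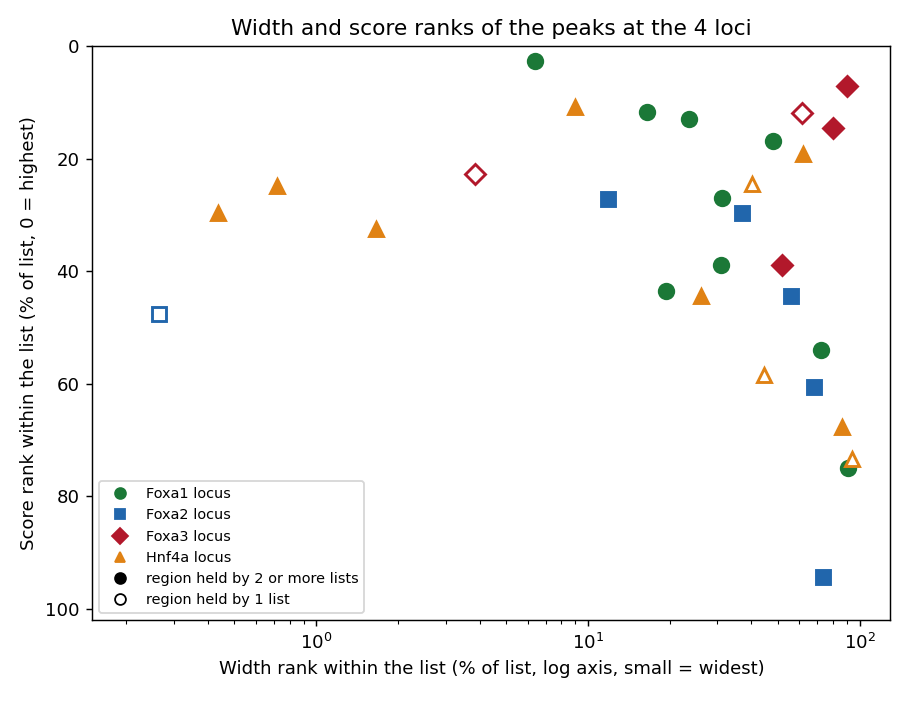
Width rank (horizontal log axis, percentage of the list, small is wide) against score rank (vertical axis, percentage of the list, 0 is the highest) for the 30 peaks; filled symbols are peaks of regions held by 2 or more lists and open symbols those of 1 list. The open square at the left is the 48-hour Foxa2 peak of 1191 bp, at 0.264% by width and 47.6% by score, and the 3 orange triangles near it are the broad region of the Hnf4a locus.

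Peaks just outside the windows bear on how the loci are bounded. The nearest region below the Foxa2 window, chr2:147757343-147758385, lay 21.6 kb away and was a peak in all 4 Foxa1 and Foxa2 lists. It ranked 12 of 10330 in iHep Foxa2, 20 of 6781 in 48-hour Foxa1, 132 of 3435 in iHep Foxa1 and 675 of 6827 in 48-hour Foxa2, far above any peak inside the window. Below the Foxa1 window, at 131 kb, chr12:58417322-58418612 was also held by these 4 lists, with rank 4 in iHep Foxa2 and 31 in 48-hour Foxa1. Above the Foxa3 window, at 56.8 kb, lay a 48-hour Foxa2 peak (rank 4032 of 6827). Above the Hnf4a window, at 20.3 kb, chr2:163470251-163471068 ranked 180 of 12661 in iHep Foxa3 and 935 of 5690 in 48-hour Foxa3. Hnf4a peaks of iHep cells also lay near the Hnf4a window, at 34.1 kb above it in the Foxa3 line (rank 773 of 2506) and at 34.8 kb in the Foxa1 line (rank 1485 of 1580). Below it, 49.6 kb away, a region was held by iHep Hnf4a of the Foxa1 line (rank 1474) and of the Foxa2 line (rank 1632 of 2485). On GRCm38.p6 the protein-coding genes next to Foxa1 are Mipol1 and Ttc6, those next to Foxa2 are Pax1 and Sstr4, those next to Foxa3 are Irf2bp1 and Sympk, and those next to Hnf4a are R3hdml and Ttpal. No peak was assigned to a gene, because no mm9 annotation was used.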

How the data were processed

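The members and the lists were chosen with earlier results of these data known. Of 21 samples, 8 inputs were not analysed here, and 13 came with peaks; the list of a Foxa3 mutant, del2, held 1 peak, and 0 at the loci. The deposited files give each peak's chromosome, start, end, name and a score, and the method behind the score is not stated by the authors in what was used here. BWA 0.6.2, MACS2 2.1.0, bedtools 2.16.2 and mm9 are named, without roles, per the submitters' processing notes. Samples were grouped by their titles. Positions were turned to 1-based. Peaks were counted where at least 1 bp overlapped a window, ranked by score and by width within their list, and merged across lists where they overlapped by at least 1 bp. Tiles were laid end to end on each chromosome up to its last peak in any list. Names followed a fixed rule: the 4 loci, each peak where a locus and list held up to 5, and each shared region. Hepatic genes to be counted only with an mm9 annotation were not analysed here. The overlap, tile and motif code was tested on simulated data. Python 3.11.15, NumPy 2.4.6, SciPy 1.17.1 and matplotlib 3.10.9 were used.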

Additional observations from a re-analysis of the deposited data

How the results depend on the processing

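With 1 library per group, every count rests on single libraries of unknown depth, and a peak not listed may be below the authors' threshold. The limits of the windows mattered most. With windows 50 kb wider on each side the Foxa2, Foxa3 and Hnf4a loci held 10, 10 and 20 peaks, and at the Hnf4a locus 1 of the added peaks came from each of the 3 iHep Hnf4a lists. In the central 50% of the windows the Foxa1 locus held 2 peaks from 2 lists and the Hnf4a locus 1 peak from 1 list. In the upper 50% of each list by score the Foxa2 locus had 1 region held by more than 1 list. With peak centres within 200 bp, 1 of the 48-hour peaks at the Hnf4a locus was kept in iHep cells. Of 81 recomputed values these 9 moved by more than the tolerance, which was 1.5 times for a count and the 95% Wilson interval for a tile share. The other 72 stayed within it, among them 15 counts that differed from the reported one and all 24 tile shares. No paired analysis was possible because the groups have 1 library each and no test was made.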
